A study of Mus musculus with 2 samples.

Results

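The genes described are 10 genes of lipid handling out of the 27998 in the count tables: Lpl, Gpihbp1, Cd36, Fabp4, Fabp5, Plin2, Hilpda, Pnpla2, Mgll and Lipa. They were picked by symbol for known roles in taking up, storing and breaking down fat, and all 10 were found. The choice was made with earlier results of these data known. Counts and medians of these genes beside those of all genes are therefore a description, not an independent result. The study profiled the stromal vascular fraction, the non-adipocyte cells released by digesting fat, from the epididymal depot of C57BL/6J mice (C57BL/6 in the labels). Mice received a low fat diet (LFD) or a high fat diet (HFD) for 24 weeks from 6 weeks of age, and 1 droplet 3′ single-cell RNA library was made per diet. How many mice went into each library is not stated, and the labels give no other treatment or genotype. The text of the treatment protocol names a low fat diet for both libraries, while the titles and the treatment label name a high fat diet for 1, and the groups follow the latter.

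Fat tissue takes up fatty acids from blood lipoproteins in steps. Lpl, lipoprotein lipase, is made by parenchymal cells and carried by Gpihbp1 to the inner face of capillaries, where it splits triglyceride. Cd36 takes the freed fatty acids into the cell and the binding proteins Fabp4 and Fabp5 carry them in the cytosol. Stored triglyceride sits in droplets coated by Plin2, and Hilpda restrains the lipase Pnpla2, which starts lipolysis. Mgll ends lipolysis by splitting monoglycerides, and Lipa does the acid counterpart in lysosomes.

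The question was in which stromal cells these genes are expressed and how their levels differ between diets. The LFD library held 7356278 UMIs (unique molecular identifiers, each counting 1 captured transcript) in 1113 barcodes, and the HFD library 8412325 in 1144, with 0 barcodes shared. Median depth was 6197 and 6486 UMIs. The 10 genes made up 1.23% of all UMIs in LFD and 1.55% in HFD. Barcodes with at least 200 genes were classed by raw UMIs: at least 10 of Dcn for fibroblasts, 3 of Cdh5 and Cldn5 for endothelial cells, 5 of Rgs5, Kcnj8, Abcc9 and Notch3 for mural cells, 10 of C1qa, C1qb and C1qc for macrophages, and 2 of Cd3d, Cd3e and Cd3g for T cells. Barcodes that met more than 1 rule were set aside. This gave 377 LFD and 291 HFD fibroblasts, 98 and 115 endothelial cells, 229 and 319 macrophages, 70 and 21 T cells, and 5 and 6 mural cells. Macrophages with at least 1 UMI of Cd9, a tetraspanin abundant on lipid-laden macrophages of obese fat, numbered 4 in LFD and 116 in HFD.

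Other marker genes followed the class names. Pecam1, Kdr, Egfl7, Emcn, Tie1 and Esam summed to 4471 CPM in LFD and 4562 in HFD endothelial cells, against 42.7 and 18.99 in fibroblasts and 9.46 and 9.33 in macrophages. Adgre1, Csf1r, Cd68, Mrc1, Fcgr1 and Cd14 summed to 4442 and 3594 CPM in macrophages, against 36.4 and 26.0 in fibroblasts. The fibroblast class also held mesothelial transcripts, 822 CPM over 5 genes in LFD and 495 in HFD, led by Upk3b. CPM is the UMIs of a gene, summed over the cells of a class, divided by all UMIs of the class and given as parts per 1e6. With 1 library per diet no test between diets was possible: the 95% intervals given in parentheses are exact Poisson for CPM, exact conditional binomial for ratios and exact Clopper-Pearson for shares, and cover counting error only.

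The carrier gene of capture at the vessel wall was an endothelial transcript. Gpihbp1 (ENSMUSG00000022579, chr15:75596628-75599481, plus strand, GRCm38), the carrier of lipoprotein lipase, stood at 3568 CPM (3412 to 3729) in LFD and 3956 CPM (3786 to 4131) in HFD in endothelial cells. Fibroblasts had 1.90 CPM (0.697 to 4.13) in LFD and 3.30 CPM (1.43 to 6.51) in HFD, from 6 and 8 UMIs, and macrophages 1.35 CPM (0.164 to 4.88) in LFD and 4.15 CPM (2.14 to 7.25) in HFD. A Gpihbp1 UMI was seen in 96.9% (91.3 to 99.4) of LFD and 93.9% (87.9 to 97.5) of HFD endothelial cells and, after each cell was thinned to 1000 UMIs, in 95.6% of 91 and 92.7% of 96 cells of that depth. In T cells, a background class, it was seen in 0% of 70 and 4.76% of 21 cells, with median depths of 2710 and 1781 UMIs against 4318 and 3156 in endothelial cells. The 0 UMIs in LFD T cells allow up to 10.1 CPM.

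Lpl (ENSMUSG00000015568, chr8:68880491-68907448, plus strand) was spread over the stroma. In LFD it stood at 612 CPM (548 to 680.3) in endothelial cells, 523 CPM (486 to 562) in macrophages without Cd9 and 489.6 CPM (465 to 515) in fibroblasts. The macrophage and fibroblast values did not differ beyond counting error, and the endothelial value was the highest of these 3 by a small margin. LFD T cells stood above it, at 862 CPM (760.2 to 975), a value that rests on few barcodes, as given below. In HFD the order was different: 2974 CPM (2889.6 to 3061) in macrophages with Cd9, 1177 CPM (1134 to 1221) in fibroblasts, 629.9 CPM (588 to 674) in macrophages without Cd9 and 486 CPM (428 to 549.97) in endothelial cells, each step beyond counting error. An Lpl UMI was present in 77.5% of LFD and 84.9% of HFD fibroblasts, 32.0% of 372 and 50.5% of 289 after thinning, against 5.71% and 4.76% of T cells. Fibroblasts had median depths of 8500 and 7903 UMIs. All 257 Lpl UMIs of the LFD T cells sat among 5 barcodes with at least 3 UMIs of the 6 macrophage markers above, whose median depth was 14151 UMIs. The other 65 LFD T cells, split off after the data had been seen, had 0. The few mural cells had 918 CPM (525 to 1491) in LFD and 749.9 CPM (302 to 1545) in HFD, from 16 and 7 UMIs, too few to compare, and the other genes are not described in them.

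Cd36 (ENSMUSG00000002944, chr5:17781690-17888801, minus strand), the fatty acid translocase, was an endothelial and macrophage transcript. Endothelial cells had 3725 CPM (3566 to 3889.7) in LFD and 4240.2 CPM (4064 to 4422) in HFD. Macrophages without Cd9 had 1119.8 CPM (1066 to 1176) in LFD and 664 CPM (621 to 709) in HFD, and fibroblasts 7.91 CPM (5.12 to 11.7) in LFD and 14.0 CPM (9.72 to 19.6) in HFD. T cells had 43.6 CPM (23.2 to 74.6) in LFD and 107 CPM (34.6 to 249) in HFD, both from few barcodes. The LFD T cells low in macrophage markers had 0 Cd36 UMIs, which allow up to 14.1 CPM. All 5 HFD UMIs were in the barcode that also held the most Fabp4 and all Gpihbp1 and Lpl UMIs of this class, and the 0 in the other 20 allow up to 65.8 CPM. Both limits lie above the fibroblast values, so fibroblast Cd36 cannot be told from background. Gpihbp1, Cd36 and Fabp4 were seen together in 94.9% of LFD and 90.4% of HFD endothelial cells, and in 89.0% and 87.5% after thinning.

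The carriers Fabp4 (ENSMUSG00000062515, chr3:10204088-10208576, minus strand) and Fabp5 (ENSMUSG00000027533, chr3:10012548-10016607, plus strand) lie 187480 bases apart and are transcribed from opposite strands. Both were highest in endothelial cells in both diets. Fabp4 stood at 45868 CPM (45306 to 46436) in LFD and 53417 CPM (52789 to 54051) in HFD there, against 455 and 580.4 CPM in fibroblasts, a ratio of 101 (95.6 to 106) in LFD. In macrophages without Cd9 it was 250.5 and 330.4 CPM. Its share of cells is a poor guide, because even T cells held a Fabp4 UMI in 27.1% (17.2 to 39.1) of LFD and 47.6% (25.7 to 70.2) of HFD barcodes. In the 21 HFD T cells it reached 873 CPM (627 to 1185), of which 30 of 41 UMIs were in 1 barcode; without it the level was 241 CPM (120.4 to 432). Fabp5 was 1413 CPM (1316 to 1516) in LFD and 3171 CPM (3019.7 to 3329) in HFD in endothelial cells and 73.7 CPM (64.6 to 83.8) in LFD and 72.7 CPM (62.3 to 84.2) in HFD in fibroblasts. Fibroblast Fabp5 overlapped that of T cells, 63.8 CPM (38.4 to 99.6) and 128 CPM (46.9 to 278). LFD macrophages without Cd9 had less than LFD fibroblasts, 25.1 CPM (17.6 to 34.8).

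The droplet genes had no such endothelial bias. Plin2 (ENSMUSG00000028494, chr4:86648386-86670060, minus strand), the coat protein of droplets outside adipocytes, was level in LFD between endothelial cells, 389 CPM (339 to 445), and macrophages without Cd9, 383 CPM (352 to 416), and lower in fibroblasts, 86.7 CPM (76.7 to 97.6). The LFD fibroblast value did not differ beyond counting error from that of T cells, 83.9 CPM (54.3 to 124). In HFD the order was 2025 CPM (1955 to 2097) in macrophages with Cd9, 841 CPM (792 to 891) in those without, 486 CPM (428 to 549.97) in endothelial cells and 182 CPM (165 to 199) in fibroblasts.

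Hilpda (ENSMUSG00000043421, chr6:29272488-29275446, plus strand), an inhibitor of lipolysis induced by low oxygen and by fatty acids, did not differ among LFD fibroblasts, endothelial cells and macrophages without Cd9 beyond counting error: 25.9, 28.9 and 22.3 CPM. T cells, used as background for the other genes, had more: 258 CPM (204 to 323) in LFD and 234 CPM (117 to 419) in HFD. The T cells low in macrophage markers had 231 CPM in LFD from 49 UMIs, seen in 24.6% of cells, so this class does not serve as background for Hilpda. B cells had 46.7 CPM (12.7 to 119.5) in LFD, from 20 cells. The highest Hilpda level among the classes was in HFD macrophages with Cd9, 369.6 CPM (340.1 to 401).

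The 3 lipases were split by class. Pnpla2 (ENSMUSG00000025509, chr7:141455198-141460743, plus strand), adipose triglyceride lipase, was sparse, with 402 UMIs in the whole LFD and 431 in the whole HFD library, and was highest in endothelial cells, 174 CPM (141 to 212) in LFD and 120.04 CPM (92.0 to 154) in HFD. Fibroblasts had 16.1 CPM (12.0 to 21.2) in LFD and 9.50 CPM (6.02 to 14.2) in HFD, no more than T cells at 23.5 CPM (9.44 to 48.4) and 21.3 CPM (0.539 to 119). Mgll (ENSMUSG00000033174, chr6:88724412-88828360, plus strand), monoglyceride lipase, was an endothelial transcript: 2828 CPM (2689 to 2972) in LFD and 3013 CPM (2865 to 3166) in HFD, 49.1 (42.1 to 57.6) times the fibroblast level in LFD. It was seen in 94.9% and 95.7% of endothelial cells, 86.8% and 93.8% after thinning, and in 2.86% and 4.76% of T cells. Lipa (ENSMUSG00000024781, chr19:34492318-34527474, minus strand), lysosomal acid lipase, was a macrophage transcript. It stood at 225 CPM (201 to 251) in LFD and 316 CPM (287 to 348) in HFD in macrophages without Cd9, against 65.1 and 67.8 CPM in endothelial cells and 50.9 and 52.4 in fibroblasts, which did not differ from each other beyond counting error in either diet. T cells had 47.0 CPM (25.7 to 78.8) in LFD and 0 UMIs in HFD, which allow up to 63.9 CPM. Against all T cells fibroblast Lipa cannot be told from background. Of the 14 LFD UMIs, however, 10 were in the 5 barcodes with macrophage markers. The LFD T cells low in these markers had 18.8 CPM (5.13 to 48.2) from 4 UMIs, against 43.4 to 59.5 for the interval of LFD fibroblasts. In LFD the reading thus depends on which T cells are used.

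**Figure D1:**
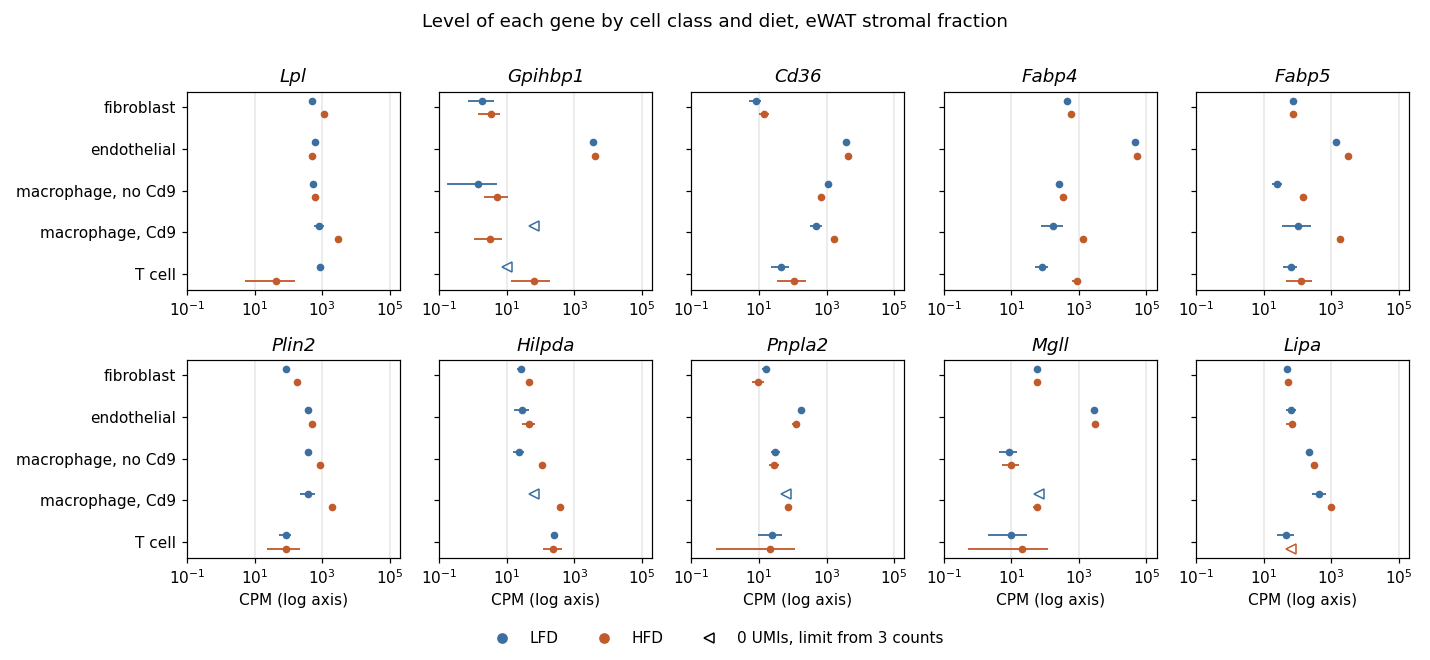
Level of each of the 10 genes (CPM, log axis) in each class, with LFD in blue and HFD in orange and bars for the exact Poisson 95% interval; open triangles mark 0 UMIs at the limit that 3 counts give. Gpihbp1 stands above 3000 CPM in endothelial cells alone among these classes, while Lpl, Plin2 and Lipa are highest in HFD macrophages with Cd9, where LFD has only 4 cells.

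Between diets, fibroblasts differed in Lpl and Plin2. Lpl was 489.6 CPM in LFD and 1177 in HFD, a ratio of 2.40 (2.26 to 2.56), and Plin2 86.7 and 182 CPM, a ratio of 2.09 (1.80 to 2.44). These were the 2 of 9 genes with at least 50 UMIs that were at least 2-fold higher with an interval leaving out 1, where 1.24% of 8339 genes were. None of the 9 was at least 2-fold lower, against 2.23% of all genes. Hilpda (1.70, 1.26 to 2.30), Cd36 (1.77, 1.03 to 3.102) and Fabp4 (1.28, 1.19 to 1.37) had smaller ratios above 1, and Pnpla2 (0.588, 0.343 to 0.980) a ratio below 1. Of these 4 genes only Hilpda kept its sign in all settings run that could test it. Subtracting T cell levels could not, since T cells had 258 CPM in LFD and 234 in HFD against 25.9 and 44.2 in fibroblasts. The log2 ratio of Cd36 was -0.56 as a mean over cells, that of Fabp4 -0.30 within the study's limits of 200 to 2500 genes and under 5% mitochondrial UMIs, and that of Pnpla2 0.21 within these limits and 0.95 after thinning. T cell Fabp4 rose from 80.5 CPM in LFD to 241 in HFD without the 1 barcode above, so the fibroblast Fabp4 ratio cannot be told from a change in background. Fabp5, Mgll and Lipa had ratios of 0.985 (0.806 to 1.204), 1.003 (0.799 to 1.26) and 1.03 (0.809 to 1.31). Within the study's limits, which kept 77 and 91 cells, the log2 ratio of Lpl went from 1.27 to 0.91, under 2-fold. Subtracting the T cell level took that of Plin2 from 1.07 to 5.10, where the LFD fibroblast value did not exceed that of T cells beyond counting error. HFD T cells had 85.2 CPM (23.2 to 218) of Plin2 from 4 UMIs, so the HFD fibroblast value did not exceed them beyond counting error either.

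Markers moved with diet in this class. Col1a1, Col1a2, Col3a1, Pdgfra, Lum and Gsn, none at 0, summed to 27350.5 CPM in LFD and 40091 in HFD, led by Gsn, and 2 of 6, Col3a1 and Lum, were at least 2-fold higher. Of the mesothelial genes Msln, Upk3b, Krt19, Lrrn4 and Wt1, none at 0, 2 of 5 were at least 2-fold lower, Krt19 and Lrrn4. Mural genes summed to 161 CPM in LFD and 293 in HFD, led by Pdgfrb, with Higd1b at 0 in LFD and 1 of 3 tested at least 2-fold higher, Tagln. Of the endothelial genes 2 of 2 tested were lower, Kdr and Esam, with Tie1 at 0 in HFD. The 6 lipid-associated macrophage genes summed to 1236 CPM in LFD and 1809 in HFD, led by Cd63, with Spp1 at 0 in LFD and Itgax at 0 in HFD, and 1 of 4 tested was lower, Trem2 (22.2 to 4.95 CPM). The part of these markers in the fibroblast ratios was not tested. After the data had been seen fibroblasts were split by Pi16 and Dpp4, genes of interstitial progenitors: 149 LFD and 65 HFD cells had at least 3 UMIs of these, and 150 and 159 had 0. Cells without them had the more Lpl, 795 CPM (743 to 851) in LFD and 1709.9 CPM (1637 to 1785) in HFD, a ratio of 2.15 (1.98 to 2.33). Cells with them had 247 CPM (222 to 273) in LFD and 339.6 CPM (297 to 387) in HFD, a ratio of 1.38 (1.16 to 1.63). Cells with Pi16 or Dpp4 were fewer in HFD, and the part of this change in the ratio over all fibroblasts was not tested. Fabp4 followed Lpl, at 979.8 and 935 CPM without and 59.3 and 84.5 with these genes. Within neither set did Fabp4 reach 2-fold between diets, at 0.955 (0.877 to 1.04) and 1.42 (1.0002 to 2.01). Mgll ran the other way: 104 CPM (88.1 to 122) and 151 CPM (123 to 184) with Pi16 or Dpp4 against 13.04 CPM (7.13 to 21.9) and 8.15 CPM (3.91 to 15.0) without. Cells with these genes held 154 of 182 LFD and 100 of 140 HFD fibroblast Mgll UMIs. Plin2 had a ratio between diets of 1.66 (1.16 to 2.36) with and 1.94 (1.59 to 2.39) without these genes, both under 2.

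In endothelial cells the ratios between diets were small save for Fabp5. It stood at 1413 CPM in LFD and 3171 in HFD, a ratio of 2.24 (2.06 to 2.45), and a Fabp5 UMI was in 56.0% and 74.0% of thinned cells, against 4.48% of 67 and 20% of 20 T cells. This was the 1 of 9 genes tested that was at least 2-fold higher, where 0.736% of 3397 genes were, and none was at least 2-fold lower, against 1.5%. The capture genes Gpihbp1 (1.11, 1.04 to 1.18) and Cd36 (1.14, 1.07 to 1.21) and the carrier Fabp4 (1.16, 1.14 to 1.18) had ratios just above 1. Plin2 had a ratio of 1.25 (1.04 to 1.51). Gpihbp1 fell below 1 after thinning, at a log2 ratio of -0.09, and with barcodes of several classes kept, at -0.05. Lpl (0.795, 0.672 to 0.938) and Pnpla2 (0.691, 0.494 to 0.961) were lower in HFD, while Mgll (1.07, 0.993 to 1.14), Hilpda (1.54, 0.778 to 3.12) and Lipa (1.04, 0.634 to 1.70) did not differ beyond counting error. The direction for Pnpla2 did not hold: its log2 ratio was 0.13 within the study's limits and 0.43 after thinning, against -0.53.

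Transcripts of genes known from other cells moved with diet in this class, those of adipocyte genes past 2-fold. Whether these UMIs came from other cells was not tested. Over 10 adipocyte genes the sum fell from 2334 CPM in LFD to 609.9 in HFD endothelial cells, led by Car3 at 989.7 and 288, with none of the 10 at 0. Of 6 genes tested 5 were at least 2-fold lower: Cfd (584 to 36.8 CPM), Retn (322 to 38.7 CPM), Car3, Adipoq (118 to 36.8 CPM) and Cidec (119 to 44.5 CPM). The same sum was 38.9 and 15.3 CPM in fibroblasts, 216 and 121 in macrophages and 23.5 and 21.3 in T cells. In macrophages 2 of 4 tested were at least 2-fold lower, Cfd (42.6 to 6.57 CPM) and Retn (25.003 to 7.26 CPM), and in those without Cd9 1 of 3, Cfd (44.0 to 6.02 CPM). In fibroblasts none reached 50 UMIs, and with against without Cd9 in HFD 0 of 2 passed. The median log2 ratio was -1.71 in endothelial cells, -1.36 in macrophages, -0.59 without Cd9 and -0.54 by Cd9. Other lists moved less far or on few UMIs in endothelial cells. Mural genes went from 28.9 to 77.4 CPM, from 16 and 40 UMIs, led by Tagln in HFD, with Cspg4 at 0 in both and no gene at 50 UMIs. Globin transcripts went from 5594 to 7179 CPM, led by Hbb-bs, with 0 of 3 at 2-fold. Adipocytes express Lpl, Cd36, Fabp4, Pnpla2 and Mgll, and the part of all these transcripts in the endothelial values was not tested.

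Many endothelial barcodes also met the mural rule. 50 LFD and 90 HFD barcodes met these 2 rules only, with median depths of 13418 and 8992 UMIs. They held 45.2% of LFD and 48.3% of HFD Gpihbp1 UMIs, 43.1% and 49.5% of Fabp4 UMIs, and 41.6% and 49.97% of Mgll UMIs. In CPM, Gpihbp1 in them was 0.776 (0.729 to 0.826) times the endothelial level in LFD and 0.679 (0.640 to 0.721) in HFD. Fabp5 in them was 1183 CPM (1106 to 1263) and 1846 CPM (1759 to 1936), a smaller step between diets than in endothelial cells. Lpl went up in them, from 456 CPM (409 to 507) to 547 CPM (501 to 597), against its fall in endothelial cells. With these barcodes added to the endothelial class, a setting chosen after the data had been seen, the log2 ratio of Fabp5 fell from 1.17 to 0.86. It was 0.83 with all barcodes of several classes kept, leaving 0 of 9 genes at 2-fold, beside 1.36% of all genes at least 2-fold higher. The log2 ratio of Lpl went from -0.33 to 0.01 with them, so its endothelial fall is not seen with these barcodes counted.

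Macrophages had the most members past 2-fold between diets. Fabp5 went from 27.7 CPM (19.9 to 37.6) to 1094 CPM (1056 to 1133), a ratio of 39.5 (29.0 to 55.1). The LFD level does not exceed that of LFD T cells, 63.8 CPM (38.4 to 99.6), so the ratio has no LFD level above background under it and its size is not read further. Hilpda went from 21.6 to 249 CPM (11.5, 8.08 to 17.0), and Plin2 from 383 to 1481 (3.87, 3.54 to 4.23). Carriers and droplet genes thus stood higher in HFD together. Lpl was 533 and 1897 CPM (3.56, 3.30 to 3.84), Fabp4 248 and 867 (3.496, 3.13 to 3.91), and Lipa 232 and 672 (2.90, 2.59 to 3.26). With Mgll (4.31, 2.36 to 8.61) these made 7 of 9 genes tested that were at least 2-fold higher, where 5.44% of 7133 genes were. None was at least 2-fold lower, against 5.99% of all genes. Pnpla2 had a ratio of 1.77 (1.26 to 2.53) and Cd36, at 1100.1 and 1206 CPM, one of 1.10 (1.03 to 1.16). Neither kept its sign. The log2 ratio of Cd36 was -0.35 within the study's limits, -0.40 as a mean over cells and -0.18 after thinning. That of Pnpla2 was -0.10 within the study's limits and -0.23 under 5% mitochondrial UMIs alone. Macrophage Pnpla2 did not exceed that of T cells beyond counting error in either diet.

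These UMIs were unevenly spread over cells. In HFD the top 10% of macrophages for each gene held 85.4% of Fabp5, 60.6% of Lpl, 55.6% of Plin2 and 61.6% of Lipa UMIs. The Mgll result rests on few cells: its 101 HFD UMIs came from 31 cells, 1 of which held 23, and 4 of which held most of them. Its log2 ratio turned from 2.11 to -0.63 within the study's limits, -1.03 under 5% mitochondrial UMIs alone and -0.09 after thinning, so no direction is given for it. On the log2 scale, thinning moved Fabp5 from 5.30 to 3.94, Fabp4 from 1.81 to 1.14 and Lipa from 1.54 to 0.58, under 2-fold. The study's limits, which kept 49 LFD and 73 HFD macrophages, moved Lpl from 1.83 to 2.72, Plin2 from 1.95 to 1.27, Hilpda from 3.53 to 4.16 and Fabp5 to 4.68. With barcodes of several classes kept, Fabp4 was at 0.99.

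The make-up of the class also moved with diet. Trem2, Spp1, Gpnmb, Cd63, Itgax and Lgals3, genes known from lipid-associated macrophages, summed to 1288 CPM in LFD and 9165 in HFD, and 6 of 6 were at least 2-fold higher. Lgals3 was the most abundant in HFD, at 5688 CPM against 535, and Gpnmb had 0 UMIs in LFD and 972 CPM in HFD. Dendritic cell genes summed to 202 CPM in LFD and 75.02 in HFD, nearly all Cd209a, with Flt3, Xcr1 and Clec9a at 0 in both. Monocyte genes summed to 241 CPM in LFD and 184 in HFD, nearly all Ccr2, with Chil3 at 0 in both and Plac8 at 0 in LFD. Fibroblast markers summed to 121 CPM in LFD and 259 in HFD, led by Gsn, and endothelial markers to 9.46 CPM in LFD and 9.33 in HFD. The lymphatic list, all Lyve1 in LFD, fell from 883 to 309.8 CPM, and the globin transcripts Hbb-bs, Hba-a1 and Hba-a2, led by Hbb-bs, rose from 38.5 to 101, with 1 of 2 tested at least 2-fold higher. Mrc1 (1906 to 925 CPM) was the 1 of 6 macrophage markers, and Cd2 (19.6 to 9.68 CPM) the 1 T cell marker tested, at least 2-fold lower. The part of cell make-up in the macrophage ratios was not tested beyond the split by Cd9.

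**Figure D2:**
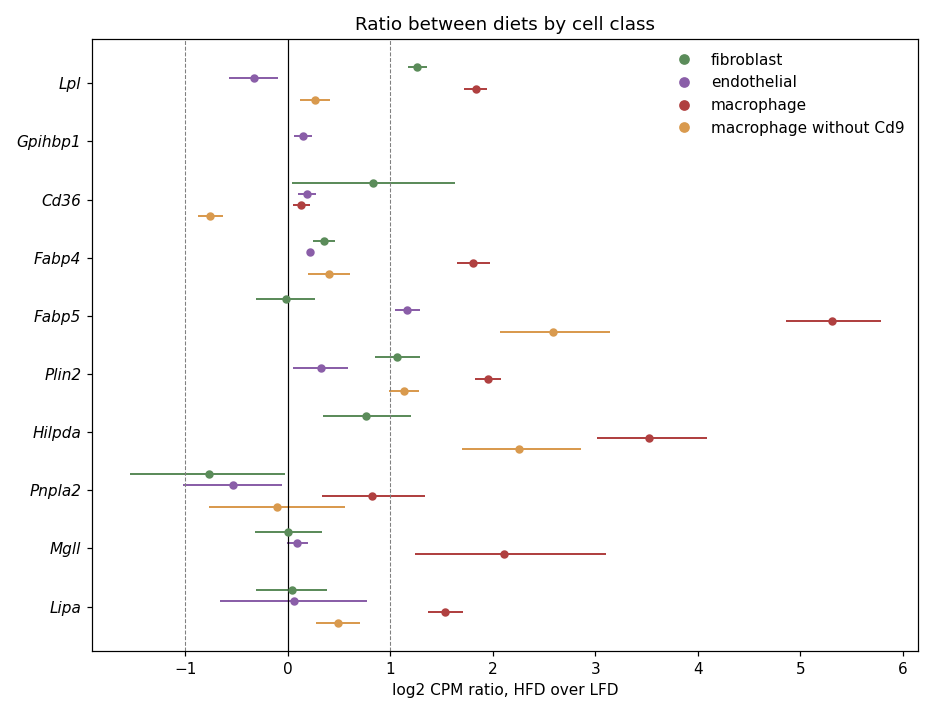
Ratio of CPM between diets (log2, HFD over LFD) of each gene in fibroblasts, endothelial cells, all macrophages and macrophages without Cd9, for genes with at least 50 UMIs, with bars for the exact 95% interval and dashed lines at 2-fold. The macrophage points lie farthest to the right for most genes plotted in them, but not for Cd36. That of Fabp5 is at 5.30, but its LFD level does not exceed that of T cells, so its size is not read further. For Fabp5, Hilpda and Plin2 the points for macrophages without Cd9 lie nearer 0. The macrophage points for Mgll, Cd36 and Pnpla2, and several smaller ratios, change sign in other settings.

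Macrophages without Cd9 had part of this difference. They had 0 Cd9 UMIs at median depths of 6296 UMIs in LFD and 6451 in HFD, which does not show that Cd9 is absent. Fabp5 was 25.1 CPM (17.6 to 34.8) in LFD and 151 CPM (131 to 174) in HFD in them, a ratio of 6.02 (4.21 to 8.84). Neither exceeds T cells beyond counting error, at 63.8 CPM in LFD and 128 CPM (46.9 to 278) in HFD, so this ratio cannot be told from background. Hilpda was 22.3 and 107 CPM (4.79, 3.24 to 7.26), and Plin2 383 and 841 (2.19, 1.98 to 2.44). These were 3 of 8 genes tested at least 2-fold higher, where 1.39% of 5807 genes were, and none was at least 2-fold lower, against 2.38%. Lpl (1.204, 1.09 to 1.33), Fabp4 (1.32, 1.14 to 1.52) and Lipa (1.41, 1.21 to 1.63) had small ratios above 1, though that of Lpl was gone under 5% mitochondrial UMIs, at a log2 of -0.00414. T cell Fabp4 rose too, from 80.5 CPM to 241 without the 1 barcode above, so the Fabp4 ratio cannot be told from a change in background. Cd36 ran the other way, from 1119.8 CPM (1066 to 1176) in LFD to 664 CPM (621 to 709) in HFD, a ratio of 0.593 (0.545 to 0.644), and its thinned share went from 58.6% to 46.0% of cells, with T cells at 1.49% and 5%. The count of genes past 2-fold was 1 within the study's limits and 1 after thinning, where fewer reach 50 UMIs. Of all genes 5.35% were at least 2-fold higher within the limits and 2.86% after thinning. Thinned levels were still past 2-fold for all 3: Fabp5 31.8 and 129 CPM, Hilpda 13.6 and 84.2, and Plin2 391 and 906. Within the limits the log2 ratio of Plin2 was 0.89 against 1.13, and that of Hilpda 3.498 against 2.26. In this class the lipid-associated genes summed to 1257 CPM in LFD and 2557 in HFD, with 2 of 3 tested at least 2-fold higher, led by Lgals3 in HFD and Cd63 in LFD and with Gpnmb at 0 in LFD. Globin transcripts rose too, from 39.8 to 166 CPM, with 2 of 2 tested at least 2-fold higher, and the part of either list in the ratios was not tested.

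Within the HFD library, macrophages with Cd9 had more of the 9 members tested than those without, save for Mgll in 3 other settings. The ratio of Fabp5 was 12.5 (10.9 to 14.5), from 151 to 1895 CPM. Lpl went from 629.9 to 2974 (4.72, 4.39 to 5.09), and Fabp4 from 330.4 to 1323 (4.005, 3.61 to 4.45). Cd36 went from 664 to 1667 CPM (2.51, 2.33 to 2.71). Hilpda (3.46, 2.87 to 4.19), Lipa (3.09, 2.77 to 3.45), Pnpla2 (2.55, 1.75 to 3.78), Plin2 (2.41, 2.25 to 2.58) and Mgll (5.75, 3.20 to 11.2) made it 9 of 9 genes at least 2-fold higher and 0 lower, where 5.62% of 5833 genes were higher and 6.74% lower. The count was 5 within the study's limits, where 2.60% of all genes were at least 2-fold higher, and 5 after thinning. The sign for Mgll turned in both. Cd36 and Plin2 fell under 2-fold, at log2 ratios of 0.83 and 0.81 within the limits and 0.89 and 0.95 after thinning, and Cd36 was at 0.97 as a mean over cells. Pnpla2 was at 0.44 within the limits. Cells with Cd9 were deeper, at a median of 8879.5 UMIs against 6451. After thinning, Lpl was in 79.3% of 116 cells with and 26.2% of 202 without Cd9, Fabp5 in 43.1% and 9.90%, Plin2 in 69.0% and 53.5%, and Lipa in 44.0% and 25.7%. T cells of this library, thinned alike, held Lpl in 5%, Fabp5 in 20%, Plin2 in 10% and Lipa in 0% of 20 cells, so Fabp5 in macrophages without Cd9 did not exceed this background by share.

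Most members rose with the number of Cd9 UMIs, in bins set after the data had been seen. Lpl was 629.9 CPM (588 to 674) at 0 Cd9 UMIs, 1171 CPM (1029.6 to 1327) at 1, 2813 CPM (2614 to 3024) at 2 to 4 and 3362 CPM (3254 to 3472) at 5 or more. Fabp5 was 151, 318, 863 and 2448 CPM, and Plin2 841, 967, 1466 and 2364. The bins held 203, 30, 31 and 55 cells, at median depths of 6451, 6324, 7575 and 13738 UMIs. Against 0 Cd9 UMIs, the ratio at 5 or more was 16.2 (14.0 to 18.8) for Fabp5, 4.15 (3.44 to 5.04) for Hilpda and 3.83 (3.43 to 4.29) for Lipa. At 1 Cd9 UMI it was 2.10 (1.57 to 2.78) for Fabp5, while Plin2 (1.15, 0.986 to 1.34), Hilpda (1.33, 0.866 to 1.98) and Fabp4 (1.15, 0.893 to 1.46) did not differ from 0 beyond counting error. Fabp4 peaked at 2 to 4, at 2111 CPM, where 307 of its 553 UMIs were in 1 cell. Without that cell it was 976 CPM, below the 1317 at 5 or more. In the whole HFD library, macrophages with Cd9 held 42.4% of Lpl, 49.9% of Plin2, 53.5% of Hilpda and 59.9% of Lipa UMIs.

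**Figure D3:**
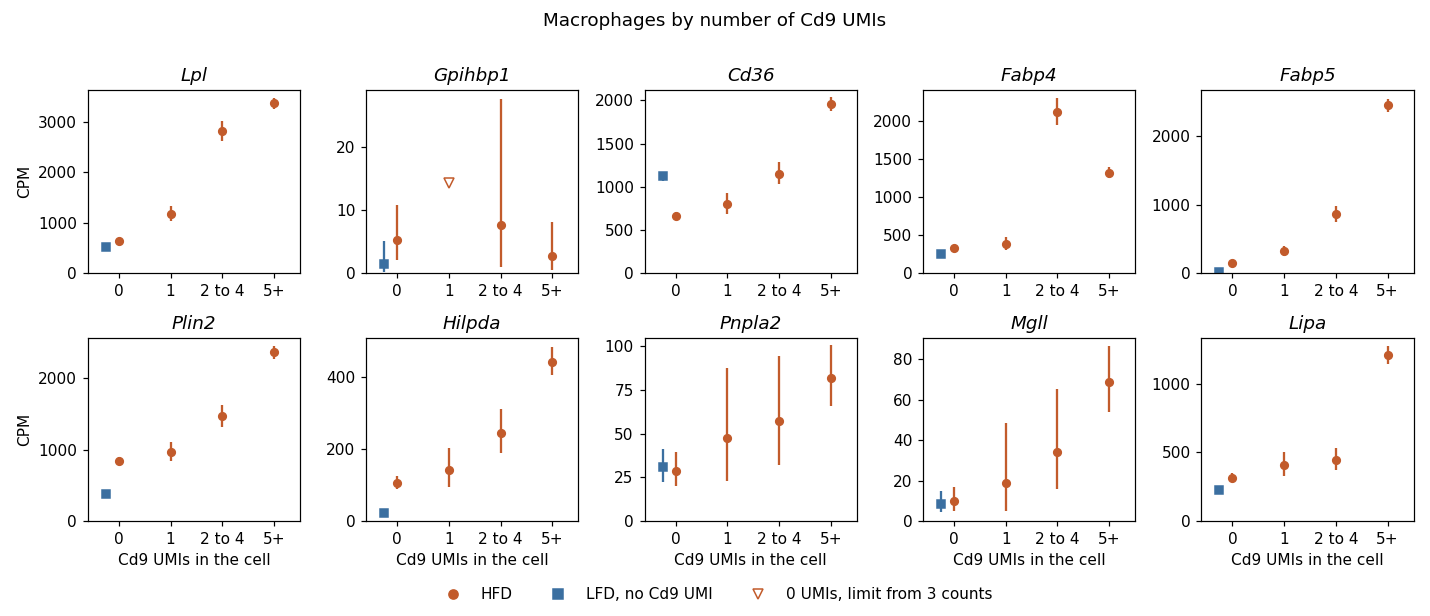
Level of each gene (CPM) in HFD macrophages by the number of Cd9 UMIs in the cell, with LFD macrophages without Cd9 as blue squares and bars for the exact Poisson 95% interval. Fabp5 goes from 151 CPM at 0 Cd9 UMIs to 2448 at 5 or more, and Fabp4 is highest at 2 to 4, where 1 cell holds 307 of 553 UMIs.

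Lpl, Cd36, Fabp5, Plin2 and Lipa were seen together in 75.9% of HFD macrophages with Cd9 and 21.7% without, and in 5.33% of LFD macrophages without Cd9. After thinning these shares were 12.9%, 0.495% and 0.455%. Only 1 cell of either set without Cd9 showed all 5 then, too few to compare the diets. A thinned cell showed on average 2.97, 1.61 and 1.41 of these 5 genes. Of the 6 lipid-associated genes, 5 of 6 were at least 2-fold higher with Cd9, summing to 2557 CPM without and 14781 with it, and none was at 0. Lgals3 led at 1280.1 and 9434 CPM. Monocyte genes summed to 302 without and 84.4 with Cd9, dendritic cell genes to 157 and 5.76, and Lyve1 alone accounted for nearly all of the 614 and 51.2 CPM of the lymphatic list. Cells with Cd9 had 0 UMIs of Ly6c2, Plac8, Prox1 and Ccl21a, and Chil3, Flt3, Xcr1, Clec9a and Mmrn1 had 0 in both. Globin transcripts fell from 166 to 46.7 CPM, 2 of 2 tested at least 2-fold lower, and of 6 macrophage markers Mrc1 was lower (1583 to 365 CPM). Fibroblast markers rose from 153 to 349 CPM, nearly all Gsn. The part of these lists in the ratios by Cd9 was not tested. The 4 LFD macrophages with Cd9 had 838 CPM (596 to 1146) of Lpl and 387 CPM (229 to 611) of Plin2, with 0 UMIs of Hilpda, which allow up to 64.5 CPM. For Lpl 29 of 39 UMIs, and for Plin2 14 of 18, were in 1 cell. Without the cell with the most Plin2 the other 3 had 97.1 CPM (26.4 to 249) of it.

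Partner genes of the same pathways were read beside the shares of all genes past 2-fold given above. No difference between partners and members was tested. In fibroblasts none of the genes tested passed 2-fold, 0 of 14 for capture and uptake, 0 of 11 for droplets, 0 of 11 for lipolysis, 0 of 12 for fatty acid oxidation and 0 of 8 for lipid regulators, as the 1.24% higher and 2.23% lower of all genes would give in lists of this size. The median log2 ratios were -0.02 for capture and uptake, 0.09 for droplet, 0.03 for lipolysis, 0.06 for fatty acid oxidation, 0.22 for lipid regulators, beside -0.03 over all genes tested and 0.35 over the members. In endothelial cells 2 of 4 droplet genes were lower, Cidec and Agpat2 (76.0 to 31.0 CPM), which makes phosphatidic acid. Cidec is also one of the adipocyte transcripts that fell in this class, and their part in the droplet list was not tested. There were 0 of 8, 4, 9 and 6 genes of the other lists past 2-fold. The medians there were 0.09 for capture and uptake, -0.68 for droplet, -0.03 for lipolysis, -0.06 for fatty acid oxidation, 0.18 for lipid regulators, beside 0.01 over all genes and 0.15 over the members.

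In macrophages 2 of 14 capture and uptake genes were at least 2-fold higher in HFD, the fatty acid transporter Slc27a1 (20.3 to 55.7 CPM) and the acyl-CoA binding protein Dbi (361 to 723 CPM). The cholesterol esterifying enzyme Soat1 (54.7 to 118 CPM) was 1 of 10 droplet genes, and Abhd5 (11.5 to 26.3 CPM), the activator of Pnpla2, 1 of 9 lipolysis genes. Of 7 lipid regulators 2 were higher, the nuclear receptors Pparg (4.05 to 43.6 CPM) and Nr1h3 (3.38 to 32.2 CPM), from only 6 and 5 LFD UMIs. Of 11 fatty acid oxidation genes 0 were higher. None of these lists had a gene at least 2-fold lower. Of all genes 5.44% were higher and 5.99% lower, so 0 or 1 gene in such a list is near the background. The median log2 ratios were 0.03 for capture and uptake, -0.05 for droplet, -0.01 for lipolysis, 0.54 for fatty acid oxidation, -0.03 for lipid regulators, beside -0.02 over all genes tested and 1.83 over the 9 members tested.

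In macrophages without Cd9 no partner gene with at least 50 UMIs was at least 2-fold higher in HFD, beside 1.39% of all genes. Pparg and Nr1h3, both higher in HFD over all macrophages, had fewer UMIs than this in the class without Cd9. They were not tested there, so the count does not show that they stayed level. Tfeb (25.8 to 12.0 CPM), a regulator of lysosome genes, was lower as 1 of 8 lipolysis genes, and 0 of 10, 10, 9 and 4 genes of the other lists passed. The medians were 0.15 for capture and uptake, -0.06 for droplet, -0.06 for lipolysis, 0.26 for fatty acid oxidation, -0.31 for lipid regulators, beside 0.00 over all genes and 0.45 over the members. With Cd9 against without in HFD, the higher genes were Slc27a1 (21.8 to 84.4 CPM) and the lipoprotein receptor Scarb1 (9.03 to 24.3 CPM) of 11 capture and uptake genes, Soat1 (55.7 to 171 CPM) of 10 droplet genes, Tfeb (12.0 to 37.1 CPM) of 9 lipolysis genes and Hadha (91.8 to 196 CPM) of 10 oxidation genes. Of 6 regulators Nr1h3 was higher (11.3 to 49.9 CPM) and its partner Rxra lower (31.6 to 12.2 CPM). These counts stand beside 5.62% higher and 6.74% lower over all genes. The medians were 0.36 for capture and uptake, 0.26 for droplet, 0.07 for lipolysis, 0.17 for fatty acid oxidation, 0.41 for lipid regulators, beside 0.00 over all genes and 1.79 over the members.

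Barcodes that met no rule held further Lpl. Among 190 such barcodes in LFD and 235 in HFD, split after the data had been seen, 31 and 12 had at least 3 UMIs of Adipoq, Plin1, Cidec and Lep. These had Lpl at 9235 CPM (8485 to 10033) in LFD and 4811 CPM (3809 to 5996) in HFD. In LFD 416 of 559 UMIs, and in HFD 36 of 79, were in 1 barcode. Without it the levels were 3779.97 CPM (3186 to 4453) and 3863 CPM (2796 to 5204), which did not differ beyond counting error. Fabp4 was 39697 and 46830.3 CPM, near the endothelial level, while Gpihbp1 had 0 UMIs in both diets, which allow up to 49.6 and 183 CPM. Pnpla2 was 859 CPM (642 to 1127) and 669.9 CPM (334 to 1199) in them, above its level in every class. A further 41 and 107 barcodes had at least 3 UMIs of the 6 macrophage markers, and in these Lpl was 1316 CPM (1185 to 1458) in LFD and 1693 CPM (1598 to 1793) in HFD and Plin2 219.97 CPM (168 to 283) in LFD and 698 CPM (638 to 763) in HFD.

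Over 12 profiles, 6 classes in each diet, the genes whose pattern was most like each member were ranked by Pearson correlation of log2 CPM among 10622 genes. The profiles share 2 libraries and include sets of 4 to 6 cells, so the values are a description. For Gpihbp1 they were Nrarp (r = 0.988) and Ptprb (0.988), for Fabp4 Gng11 (r = 0.963) and Adgrf5 (0.954), and for Mgll Cd200 (r = 0.978) and Gng11 (0.968). Gng11 thus stood near both Fabp4 and Mgll. For Cd36 they were Smagp (r = 0.923) and Plxnd1 (0.907), and for Fabp5 Efr3b (r = 0.909) and Pdgfb (0.863). For Lipa they were Psap (r = 0.969) and Pltp (0.943), for Hilpda Acp5 (r = 0.961) and Dera (0.937) and for Plin2 Gna12 (r = 0.842) and Gdf15 (0.827). The sparse Pnpla2 was nearest Fnbp1l (r = 0.930) and Adipor1 (0.915), and Lpl Psmd2 (r = 0.911) and Anapc11 (0.881).

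Promoter sequence was read for all members in the reference table. RefSeq promoters (GRCm38.p6) matched 6 of the 10 genes, Cd36, Plin2, Hilpda, Pnpla2, Mgll and Lipa, in 8 windows of 250 bases before a transcript start. Motifs were searched on both strands, after the data had been seen. AGGTCA, the half-site of nuclear receptors such as Pparg, was in 2 of 8 windows, against 14.0% of all 32851 promoters. ACGTG, the core of the hypoxia response element, was in 3 of 8 against 16.6%, and the E-box CACGTG, which contains ACGTG, in 1 of 8 against 6.02%. Mgll holds 2 of the 3 windows with ACGTG and the 1 with CACGTG. With 8 windows these counts do not set the members apart. The windows with AGGTCA are shown with the match in capitals, read on the gene's strand, where both matches appear as TGACCT. They are Plin2 at chr4:86670060-86670309 and Cd36 at chr5:17835897-17836146, both on the minus strand, the latter inside the annotated span of Cd36.
Plin2: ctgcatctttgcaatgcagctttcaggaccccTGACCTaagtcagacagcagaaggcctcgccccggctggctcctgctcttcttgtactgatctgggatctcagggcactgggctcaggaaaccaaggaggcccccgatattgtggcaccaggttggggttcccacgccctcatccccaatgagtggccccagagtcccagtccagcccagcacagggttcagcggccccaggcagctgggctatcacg
Cd36: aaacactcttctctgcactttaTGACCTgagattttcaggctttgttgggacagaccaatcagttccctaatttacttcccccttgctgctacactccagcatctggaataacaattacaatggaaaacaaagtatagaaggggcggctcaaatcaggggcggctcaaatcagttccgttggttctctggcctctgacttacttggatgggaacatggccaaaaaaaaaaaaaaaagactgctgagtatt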

How the data were processed

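The libraries were 10x Chromium 3′ libraries of the epididymal stromal vascular fraction, 1 per diet. The counts are those the authors deposited, unnormalized UMIs from Cell Ranger on mm10. The header of each count table names version 3.0.2 of Cell Ranger, and all values are whole numbers. Depth was 7356278 UMIs in LFD and 8412325 in HFD. The 10 genes and all gene lists were chosen with earlier results of these data known.

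Barcodes with at least 200 genes were classed by the UMI thresholds given with the results, and 68 LFD and 122 HFD barcodes that met more than 1 rule, B cells among the rules (3 UMIs of Cd79a, Cd79b and Ms4a1), were left out. UMIs were summed over the cells of a class and divided by their total. Ratios carry no test, since each diet has 1 library. A gene was tested against the 2-fold threshold with at least 50 UMIs over both sides. Lists were read by counts and the median log2 ratio after 0.5 UMIs were added. Named partner genes were those of the lists past 2-fold, at most 8 per class with the largest changes. Applying this rule to the pathway and adipocyte lists, and also to cells with against without Cd9, was decided after values were seen. The 2 genes most like each member in pattern were named, after 10 CPM were added. Cells were thinned to 1000 UMIs with shallower cells left out. A count of 0 is given as a limit of 3 counts. Trac, Trbc2 and Ighm are not in the tables.

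Alternatives were class thresholds multiplied by 2, barcodes of several classes kept, the study's limits, under 5% mitochondrial UMIs alone, Scrublet doublets left out (expected rate 1%), means over cells, thinning, scaling without mitochondrial UMIs or by the median ratio, T cell levels subtracted, gene minimums of 20 UMIs or none, and Cd9 of at least 2 UMIs. The tools were Python 3.11.15, numpy 2.4.6, scipy 1.17.1, pandas 2.3.3, scanpy 1.11.5 and matplotlib 3.10.9, and the interval methods were tested on simulated counts. Gene positions are those of GENCODE M21 on GRCm38.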

Additional observations from a re-analysis of the deposited data

Results flagged for a closer look

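Some genes moved in opposite directions between classes, each beyond counting error, and none of these differences was tested, since each diet has 1 library. Lpl had an HFD over LFD ratio of 2.40 in fibroblasts and 0.795 in endothelial cells, 3.02 times apart. Against macrophages (3.56) the endothelial ratio of Lpl was 0.223 times as large, and against macrophages without Cd9 (1.204) 0.660 times. Cd36 had a ratio of 1.77 in fibroblasts, from 25 and 34 UMIs, and 0.593 in macrophages without Cd9, 2.99 times apart. The endothelial ratio of Cd36, 1.14, was 1.92 times that of macrophages without Cd9. Pnpla2 had a ratio of 0.588 in fibroblasts, 0.691 in endothelial cells and 1.77 in macrophages. The fibroblast ratio of Pnpla2 was 0.333 and the endothelial one 0.391 times the macrophage ratio. Several of these directions changed in other settings. With barcodes that also meet the mural rule, the endothelial log2 ratio of Lpl was 0.00792 against -0.33. Fibroblast Cd36 and Pnpla2 cannot be told from T cell background, and their log2 ratios turned to -0.56 (Cd36, mean over cells) and 0.95 (Pnpla2, thinned). Endothelial Pnpla2 turned to 0.43 after thinning, and macrophage Pnpla2 to -0.10 within the study's limits. At 29.7 CPM (21.6 to 39.9) in LFD and 52.6 CPM (44.5 to 61.6) in HFD, macrophage Pnpla2 did not exceed that of T cells beyond counting error either. Adipocyte transcripts, which fell in HFD endothelial cells, moved the same way as Lpl and Pnpla2 there. Fabp4 (1.16) and Cd36 (1.14), which adipocytes also express, moved the other way, and Mgll (1.07) did not differ beyond counting error. The part of adipocyte transcripts was not tested.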

How the results depend on the processing

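For the member ratios past 2-fold, 153 values under other settings stayed within the main 95% interval, 77 left it in the same direction and 6 turned sign, all 6 for Mgll in macrophages. The cause of these shifts was not tested. For ratios under 2-fold, 235 stayed and 69 left the interval; of 178 values whose main interval leaves out 1, 17 turned sign. Leaving out Scrublet doublets, scaling without mitochondrial UMIs and scaling by the median ratio moved none of the ratios past 2-fold out of its interval. Of 20 levels in the highest class, 13 moved with barcodes of several classes kept, 12 within the study's limits, 8 under 5% mitochondrial UMIs, 7 as means over cells and 3 with class thresholds multiplied by 2, and of 20 shares of cells 14 moved after thinning. Of 20 T cell levels, 3 moved in T cells low in macrophage markers. The main log2 ratios of those that moved were Lpl 1.27 and Plin2 1.07 in fibroblasts, Fabp5 1.17 in endothelial cells, Lpl 1.83, Fabp4 1.81, Fabp5 5.30, Mgll 2.11, Plin2 1.95, Hilpda 3.53 and Lipa 1.54 in all macrophages, Plin2 1.13, Hilpda 2.26 and Fabp5 2.59 in macrophages without Cd9, Lpl 2.24, Fabp5 3.65, Plin2 1.27, Cd36 1.33, Fabp4 2.002, Hilpda 1.79, Pnpla2 1.35, Mgll 2.52 and Lipa 1.63 in macrophages with over without Cd9.

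With barcodes of several classes kept, log2 ratios were Lpl 1.14 in fibroblasts, Fabp5 0.83 in endothelial cells, Lpl 1.71, Fabp4 0.99, Fabp5 4.57 and Mgll 0.94 in all macrophages, Lpl 2.12, Fabp5 3.25 and Plin2 1.16 in macrophages with over without Cd9. The count of members at least 2-fold higher was 0 (main 1) in endothelial cells. Shares of all genes past 2-fold were 1.36% higher in endothelial cells and 0.837% lower in endothelial cells. With class thresholds multiplied by 2, shares of all genes past 2-fold were 1.14% higher in endothelial cells. Within the study's limits, log2 ratios were Lpl 0.91 in fibroblasts, Lpl 2.72, Fabp4 1.55, Fabp5 4.68, Plin2 1.27, Hilpda 4.16 and Mgll -0.63 in all macrophages, Plin2 0.89 and Hilpda 3.498 in macrophages without Cd9, Lpl 2.06, Cd36 0.83, Fabp4 1.15, Fabp5 2.60, Plin2 0.81, Hilpda 1.27, Pnpla2 0.44, Mgll -0.92 and Lipa 1.86 in macrophages with over without Cd9. The count of members at least 2-fold higher was 1 (main 2) in fibroblasts, 1 (main 3) in macrophages without Cd9 and 5 (main 9) in macrophages with over without Cd9. Shares of all genes past 2-fold were 2.67% higher in fibroblasts, 1.53% higher in endothelial cells, 5.35% higher in macrophages without Cd9, 4.52% lower in macrophages without Cd9, 2.60% higher in macrophages with over without Cd9 and 3.86% lower in macrophages with over without Cd9. Under 5% mitochondrial UMIs alone, log2 ratios were Lpl 1.35, Fabp5 4.69, Mgll -1.03 and Lipa 1.88 in all macrophages, Lpl 1.95, Fabp4 1.38, Fabp5 2.71, Plin2 1.01, Hilpda 1.34, Mgll -0.80 and Lipa 1.97 in macrophages with over without Cd9. Shares of all genes past 2-fold were 3.07% higher in macrophages without Cd9. As means over cells, log2 ratios were Lpl 1.64, Fabp4 1.37, Fabp5 4.58, Plin2 1.54, Mgll 1.199 and Lipa 0.99 in all macrophages, Cd36 0.97, Fabp5 3.08, Plin2 1.04, Mgll 1.46 and Lipa 1.33 in macrophages with over without Cd9. After thinning, log2 ratios were Lpl 1.44 and Plin2 1.36 in fibroblasts, Lpl 1.72, Fabp4 1.14, Fabp5 3.94, Plin2 1.60, Mgll -0.0905 and Lipa 0.58 in all macrophages, Fabp5 2.02 in macrophages without Cd9, Cd36 0.89, Fabp5 3.08, Plin2 0.95, Mgll -0.78 and Lipa 1.10 in macrophages with over without Cd9. The count of members at least 2-fold higher was 1 (main 3) in macrophages without Cd9 and 5 (main 9) in macrophages with over without Cd9. Shares of all genes past 2-fold were 1.93% higher in fibroblasts, 1.38% lower in fibroblasts and 2.86% higher in macrophages without Cd9. With T cell levels subtracted, log2 ratios were Plin2 5.10 in fibroblasts, Plin2 2.22 and Lipa 1.86 in all macrophages, Plin2 1.34 in macrophages without Cd9, Cd36 1.49, Fabp5 6.24 and Pnpla2 2.82 in macrophages with over without Cd9. With levels of T cells low in macrophage markers subtracted, log2 ratios were Plin2 2.21 in fibroblasts, Plin2 2.14 in all macrophages, Cd36 1.49, Fabp5 6.24 and Pnpla2 2.82 in macrophages with over without Cd9. With Cd9 of at least 2 UMIs, log2 ratios were Lpl 2.37, Cd36 1.44, Fabp4 2.15 and Plin2 1.38 in macrophages with over without Cd9. With a minimum of 20 UMIs, shares of all genes past 2-fold were 1.87% higher in fibroblasts, 1.51% higher in endothelial cells and 2.29% lower in endothelial cells. With no minimum of UMIs, shares of all genes past 2-fold were 1.89% higher in fibroblasts and 1.12% higher in endothelial cells. With barcodes that also meet the mural rule, log2 ratios were Fabp5 0.86 in endothelial cells. The count of members at least 2-fold higher was 0 (main 1) in endothelial cells. Shares of all genes past 2-fold were 0.807% lower in endothelial cells. In fibroblasts with Pi16 or Dpp4, log2 ratios were Lpl 0.46 and Plin2 0.73 in fibroblasts. The count of members at least 2-fold higher was 0 (main 2) in fibroblasts. In fibroblasts without these genes, log2 ratios were Lpl 1.10 in fibroblasts. The count of members at least 2-fold higher was 1 (main 2) in fibroblasts. Shares of all genes past 2-fold were 1.86% higher in fibroblasts. The settings with the mural rule, with Pi16 and Dpp4, with T cells low in macrophage markers, and without the barcode with the most Fabp4 or Lpl UMIs were chosen after seeing the data. Mgll, Pnpla2 and Hilpda are limited by depth, with few UMIs outside their main class. No paired analysis was possible, because each diet has 1 library.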
